A study of Mus musculus with 22 samples.

Results

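The imprinted genes examined here were 43 mouse genes listed by name, out of 23037 genes in the table, with no threshold on a measured value. A row was matched for 42 of them, and Dlk1, for which none was matched, was not analysed here. Over all libraries 31 members passed the filter on low counts, which kept genes with at least 5 cpm (counts scaled to the size of the library) in at least 2 libraries. Imprinting marks a stretch of DNA in the germ line of one parent, usually by methylation of a control region, so that a gene is read from the chromosome of that parent or of the other alone. Imprinted genes lie in clusters that share a control region, and many act on fetal growth, on the adult brain or on the silencing of their neighbours. H19 and Igf2 are the best known pair. The noncoding RNA H19 is read from the maternal chromosome and the growth factor gene Igf2, in most tissues, from the paternal one. They share enhancers, from which the CTCF protein insulates Igf2 on the maternal chromosome.

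The study asked whether loss of circTulp4, a circular RNA made by backsplicing of the Tulp4 gene, changes gene expression in the brain. In circTulp4-deficient (CD) mice the splice acceptor of the backsplicing reaction was mutated by CRISPR-Cas9, on a C57BL/6 breeding background, and some circTulp4 remained in these animals. Polyadenylated RNA of wild-type (WT) and CD mice was measured by CelSeq2, which counts reads at the 3′ ends of transcripts, in the hippocampus (3 WT and 4 CD libraries), cortex (4 and 4) and cerebellum (4 and 3) of 8 mice. Ages and sexes of these mice are not given in the sources used here, and mice are called by their names in the labels (m244). The counts add up both parental chromosomes, so these data give the amount of an imprinted RNA and not the parent it came from.

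Counts per library, with 1 transcript kept per gene, were between 2760846 and 8858940, so that 5 cpm stood for 13.8 to 44.3 counts. Each region carried its own markers: 6 of 6 cerebellum markers were called higher in the cerebellum than in either other region, 6 of 6 cortex markers were called higher in the cortex than in the hippocampus, and 5 of 6 hippocampus markers were called lower in the cortex. The WT hippocampus of mouse m244 stood apart, with a summed level of 10 choroid plexus markers of 8570 cpm against 155 to 4307 cpm in the other 6 hippocampi and 48.2 to 128 cpm in the cortices and cerebella. On a measure taken from few counts, 1 library was unlike the others with its label, and whether that label is right was not tested. The range of each genotype on this measure comes from these same libraries. The paper reported linear Tulp4 levels in the brain that did not differ between genotypes. The counts by which 1 Tulp4 transcript exceeded another were 3.97 cpm (16 counts) in the library labelled CD hippocampus of mouse m118, against 0.42 to 0.57 cpm in the other 3 CD hippocampi and 2.71 to 3.69 cpm in the WT hippocampi. The cortex and cerebellum of mouse m118 had 0.90 and 1.55 cpm. The CD libraries had 0.14 to 1.29 cpm in the cortex and 0.60 to 2.61 cpm in the cerebellum, and the WT libraries 1.45 to 6.02 and 3.12 to 13.6 cpm. Values without these libraries are given beside several of the hippocampal results. Pituitary markers summed to 2.23 to 128 cpm in CD libraries and to 1.58 to 14.1 cpm in WT libraries. Sums of leptomeninges markers were between 62.1 and 159 cpm, of endothelium markers between 230 and 325 cpm, of hypothalamus markers between 0.61 and 7.84 cpm and of globin genes between 3744 and 14001 cpm, and no marker of these lists was called between genotypes. The pituitary markers tested within a region (Prl and Gh in hippocampus and cerebellum, Gh in cortex) all had an unadjusted p below 0.05 and higher estimates in CD mice, with median log2 differences of 2.80 (hippocampus), 3.42 (cerebellum) and 3.39 (cortex), and none reached an FDR below 0.05 (edgeR). The excess was not in every CD library. Gh was 22.4, 0.81, 92.3 and 8.61 cpm in CD and 2.07 to 6.17 cpm in WT hippocampi. In cerebella it was 54.2, 47.6 and 0.37 cpm in CD and 1.29 to 10.2 cpm in WT mice. The part of pituitary RNA in the genotype differences was not tested.

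Several imprinted RNAs are precursors of microRNAs, and for those the count of the host is the only value these libraries hold. RefSeq (GRCm38.p6) places 20 hairpins with 40 mature microRNAs inside 8 members, 10 hairpins of them in Mirg, the microRNA host of the Dlk1-Meg3 cluster. The 40 microRNAs have 39 distinct seeds, so they do not form one seed family. The 6 printed here come from H19, Igf2 and Mest, the members whose levels are followed most closely here. They are shown 5′ to 3′ with the seed (bases 2 to 8) in capitals.
miR-675-5p (H19), chr7:142577112-142577133, minus strand: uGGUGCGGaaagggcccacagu
miR-675-3p (H19), chr7:142577078-142577099, minus strand: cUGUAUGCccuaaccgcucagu
miR-483-5p (Igf2), chr7:142654968-142654989, minus strand: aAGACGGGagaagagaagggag
miR-483-3p (Igf2), chr7:142654932-142654952, minus strand: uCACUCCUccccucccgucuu
miR-335-5p (Mest), chr6:30741314-30741336, plus strand: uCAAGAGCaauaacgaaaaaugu
miR-335-3p (Mest), chr6:30741354-30741375, plus strand: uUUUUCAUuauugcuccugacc

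Plagl1, a zinc finger transcription factor that is itself imprinted, is known as a regulator of other imprinted genes and binds a palindromic core, GGGGCCCC. The promoter windows of RefSeq (GRCm38.p6, 250 bases before to 50 after a start site) covered 36 of the 43 members in 54 windows. The core was in 4 of these windows, those of Peg3, Usp29, Ppp1r9a and Rasgrf1, or 7.41%, against 1.08% of all 32851 windows, both strands searched. The first 2 of these are hardly separate, since Peg3 and Usp29 start 97 bases apart on opposite strands and their windows share 263 bases. A shorter core, TGCCGC, which the imprint-keeping protein Zfp57 reads when methylated, was in 14 member windows (25.9%), belonging to 13 members, and in 11.6% of all windows. These windows are not all separate either. The Mest windows from 30737800 and from 30737803 hold the same matches, and Snrpn and Snurf are both among the 13 members. The 2 cores do not overlap each other in sequence. A match of letters is a description and does not show that a protein was bound. The next lines give, as examples, windows of 5 of the members that hold a core, with GGGGCCCC in capitals for Usp29, Rasgrf1 and Ppp1r9a and TGCCGC (or its reverse complement GCGGCA) in capitals for Nnat and Nap1l5.
Usp29, chr7:6730333-6730632, plus strand: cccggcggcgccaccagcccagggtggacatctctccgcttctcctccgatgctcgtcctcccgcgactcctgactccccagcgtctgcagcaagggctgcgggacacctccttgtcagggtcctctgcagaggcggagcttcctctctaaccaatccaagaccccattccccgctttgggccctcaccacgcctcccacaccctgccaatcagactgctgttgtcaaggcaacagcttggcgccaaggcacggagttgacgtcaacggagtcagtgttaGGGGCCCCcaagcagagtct
Rasgrf1, chr9:89909525-89909824, plus strand: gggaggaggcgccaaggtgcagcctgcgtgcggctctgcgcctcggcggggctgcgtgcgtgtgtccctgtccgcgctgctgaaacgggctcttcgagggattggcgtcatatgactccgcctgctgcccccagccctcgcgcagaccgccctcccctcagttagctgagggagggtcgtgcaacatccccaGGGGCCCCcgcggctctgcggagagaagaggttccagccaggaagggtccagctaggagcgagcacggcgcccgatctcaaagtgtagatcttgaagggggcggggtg
Ppp1r9a, chr6:4903061-4903360, plus strand: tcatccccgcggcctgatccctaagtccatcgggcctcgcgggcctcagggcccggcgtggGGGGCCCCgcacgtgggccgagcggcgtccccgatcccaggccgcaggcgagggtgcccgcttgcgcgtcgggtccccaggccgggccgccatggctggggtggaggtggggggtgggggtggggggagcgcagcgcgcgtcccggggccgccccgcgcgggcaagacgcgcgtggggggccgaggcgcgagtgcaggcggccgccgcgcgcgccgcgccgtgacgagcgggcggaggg
Nnat, chr2:157559828-157560127, plus strand: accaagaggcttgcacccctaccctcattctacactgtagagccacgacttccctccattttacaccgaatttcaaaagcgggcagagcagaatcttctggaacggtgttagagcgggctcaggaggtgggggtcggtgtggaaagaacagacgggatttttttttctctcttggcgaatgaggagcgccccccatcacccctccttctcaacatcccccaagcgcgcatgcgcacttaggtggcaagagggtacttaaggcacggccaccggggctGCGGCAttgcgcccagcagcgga
Nap1l5, chr6:58907077-58907376, minus strand: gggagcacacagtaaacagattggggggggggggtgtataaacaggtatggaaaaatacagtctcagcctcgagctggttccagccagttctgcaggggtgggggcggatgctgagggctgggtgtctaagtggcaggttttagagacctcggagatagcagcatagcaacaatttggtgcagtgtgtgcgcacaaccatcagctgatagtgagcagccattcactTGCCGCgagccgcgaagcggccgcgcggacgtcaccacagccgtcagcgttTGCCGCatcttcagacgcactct

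Between genotypes, no imprinted gene passed the thresholds in any region. The thresholds were an FDR (Benjamini-Hochberg over all genes tested) below 0.01 with a fold change above 2 or below 0.5, by edgeR's quasi-likelihood test. In the hippocampus 0 of 30 members tested passed, as did 0.0% of all 9964 genes tested. In the cortex it was 0 of 31 members and 0.0% of 9927 genes, and in the cerebellum 0 of 30 members and 0.0% of 10142 genes. An FDR below 0.05 with any fold change was reached by 0 members in each region and by 0.0%, 0.0101% and 0.0% of all genes. With the 3 regions fitted together by limma with the mouse as a random block, 0 of 31 members passed, and so did 0.0% of 11137 genes at either FDR. Without the library labelled CD hippocampus of mouse m118, or without the WT hippocampus of mouse m244, the count in the hippocampus was 0 as well, and DESeq2 called 0 members in each region.

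How large a difference the data allowed was read from the 95% confidence intervals. They lay within a 2-fold change either way for 26 of 30 members (hippocampus), 31 of 31 (cortex) and 28 of 30 (cerebellum). The intervals that reached further were those of Igf2, Cdkn1c, Igf2r and Peg10 in the hippocampus and of Cdkn1c and Igf2r in the cerebellum. H19 was not among the members tested in the hippocampus. With the filter applied over all 22 libraries, its interval there was -3.54 to -0.79 on the log2 scale (edgeR). The median log2 difference (CD minus WT) of the members tested was 0.09 for hippocampus, -0.03 for cortex and -0.06 for cerebellum, beside medians over all genes of -0.01, -0.00 and -0.00. In bulk tissue, fewer cells of a type and less RNA per cell cannot be told apart.

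**Figure D1:**
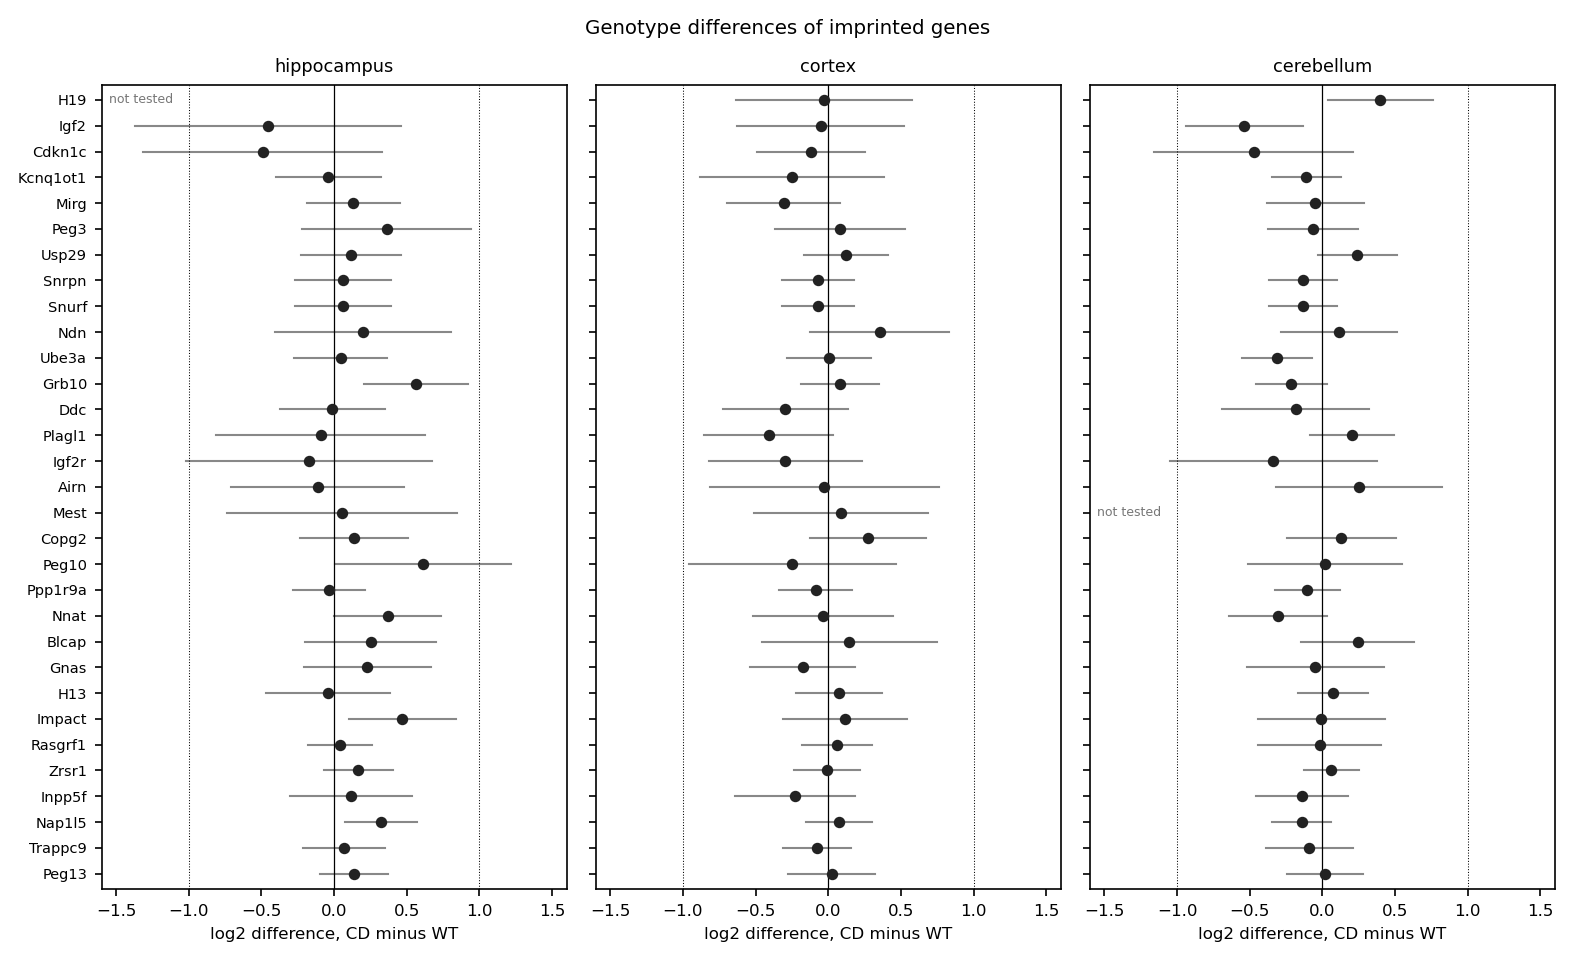
Log2 difference between CD and WT mice (x axis, CD minus WT, edgeR) of the 31 members that passed the filter (y axis), 1 panel per region. Points are estimates, bars are 95% confidence intervals, dotted lines mark 2-fold changes and "not tested" marks members that failed the filter in that region. All points lie between -0.54 and 0.61, and no member passed the thresholds.

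At an unadjusted p below 0.05, 4 of 30 members were past the limit in the hippocampus, all with higher levels in CD mice, beside 4.22% of all genes. They were Grb10, Nap1l5, Impact and Peg10. Grb10, an adaptor protein that binds insulin and IGF receptors and restrains growth, was measured at 37.3, 33.0 and 37.7 cpm in the WT hippocampi and at 44.5, 53.9, 43.9 and 69.4 cpm in the CD hippocampi. The CD libraries all lay above the WT libraries, and the log2 difference was 0.56 (SE 0.16, FDR = 0.9975, edgeR). Nap1l5, a nucleosome assembly protein gene of the brain, had 190, 183 and 161 cpm in WT and 223, 249, 192 and 223 cpm in CD hippocampi. Those groups did not overlap either, with a log2 difference of 0.32 (SE 0.11, FDR = 0.9975, edgeR).

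Impact, which restrains the stress-responsive translation kinase Gcn2, had 25.9, 17.6 and 20.1 cpm in WT and 33.2, 30.5, 23.8 and 29.8 cpm in CD hippocampi. The lowest CD library lay below the highest WT library, and the log2 difference was 0.47 (SE 0.17, FDR = 0.9975, edgeR). Peg10, a gene derived from a retrotransposon and needed in the placenta, had 3.46, 4.04 and 4.44 cpm in WT and 4.52, 5.43, 8.36 and 5.79 cpm in CD hippocampi. The groups did not overlap, and the log2 difference was 0.61 (SE 0.28, FDR = 0.9975, edgeR). In all, 3 of 30 members did not overlap between genotypes in the hippocampus, beside 5.43% of all genes.

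These hippocampal values were computed again without each library in doubt, a choice made after the data were seen. Without the library labelled CD hippocampus of mouse m118 the log2 differences were 0.64 for Grb10, 0.32 for Nap1l5, 0.42 for Impact and 0.71 for Peg10, and those 4 and Nnat had an unadjusted p below 0.05 (5 of 30, beside 4.42% of all genes, edgeR). The members that did not overlap were Grb10, Nap1l5 and Peg10 (3 of 30, beside 9.18% of all genes). Without the WT hippocampus of mouse m244 the differences were 0.60, 0.25, 0.44 and 0.69 in the same order, and Grb10 and Impact alone had an unadjusted p below 0.05 (2 of 30, beside 4.16%). With only 2 WT libraries left, 6 of 30 members did not overlap (5 higher and 1 lower in CD mice), beside 13.2% of all genes.

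In the cortex 0 of 31 members had an unadjusted p below 0.05, beside 3.3% of all genes, and 0 members had groups that did not overlap, beside 2.53%. The smallest p values belonged to Plagl1, Mirg and Ndn. Plagl1 was measured at 32.9, 36.1, 35.1 and 45.6 cpm in WT and at 15.4, 33.1, 28.4 and 34.4 cpm in CD cortices, and the CD cortex of mouse m118 was the lowest of the 8. The groups overlapped, with a log2 difference of -0.41 (SE 0.21, FDR = 0.9999, edgeR). Mirg had 33.4, 26.3, 25.6 and 27.7 cpm in WT and 23.6, 28.5, 15.2 and 24.5 cpm in CD cortices, a log2 difference of -0.31 (SE 0.18). Ndn, which encodes necdin and is one of the genes missing in Prader-Willi syndrome, had 51.7, 70.6, 108 and 97.8 cpm in WT and 137, 121, 80.9 and 79.9 cpm in CD cortices. These groups overlapped over much of their range, and the log2 difference was 0.35 (SE 0.22).

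In the cerebellum 3 of 30 members had an unadjusted p below 0.05, beside 4.56% of all genes: H19 was the higher one in CD mice, and Igf2 and Ube3a were the lower ones. Igf2 had 86.3, 86.9, 152 and 123 cpm in WT and 85.1, 67.4 and 78.4 cpm in CD cerebella. The groups did not overlap, and the log2 difference was -0.54 (SE 0.18, FDR = 0.981, edgeR). Ube3a, the ubiquitin ligase gene of Angelman syndrome, which neurons read from the maternal chromosome, had 49.3, 46.3, 48.2 and 53.3 cpm in WT and 40.7, 36.5 and 41.6 cpm in CD cerebella. The CD libraries were again all lower, with a log2 difference of -0.31 (SE 0.11, FDR = 0.981, edgeR). Members that did not overlap between genotypes in the cerebellum were 4 of 30 (Igf2, Ube3a, Grb10 and Nap1l5, all lower in CD mice), beside 5.34% of all genes. Grb10 and Nap1l5 thus had CD libraries above WT in the hippocampus and below WT in the cerebellum.

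Over the 3 regions together, 0 of 31 members had an unadjusted p below 0.05 by limma, beside 3.58% of all genes. The log2 difference of H19 was -0.44 (SE 0.25, FDR = 0.9997, limma), and -0.21 without mouse m244. The smallest unadjusted p values belonged to Copg2, Usp29 and H19. Copg2, a coatomer subunit gene that overlaps the end of Mest, had 16.9, 11.6 and 13.5 cpm in WT and 16.8, 14.9, 13.8 and 15.9 cpm in CD hippocampi, 9.23, 10.97, 8.24 and 9.11 cpm in WT and 9.36, 11.5, 12.0 and 12.6 cpm in CD cortices, and 10.6, 10.9, 12.0 and 9.27 cpm in WT and 10.6, 12.3 and 12.0 cpm in CD cerebella. Genotypes overlapped in all regions, and the log2 difference was 0.19 (SE 0.09). Usp29, a deubiquitinase family gene paired with Peg3, had 38.4, 41.0 and 38.9 cpm in WT and 32.2, 46.0, 38.7 and 52.8 cpm in CD hippocampi, 58.4, 67.9, 49.2 and 46.7 cpm in WT and 68.9, 55.7, 61.5 and 57.9 cpm in CD cortices, and 43.5, 35.6, 31.8 and 36.7 cpm in WT and 45.6, 43.8 and 41.6 cpm in CD cerebella. These overlapped as well, with a log2 difference of 0.16 (SE 0.08). Whether the genotype difference itself differed between regions was tested as an interaction in edgeR. No member reached an FDR below 0.05, as did 0.0% of all genes, and 3 of 31 members had an unadjusted p below 0.05, beside 3.91% of all genes. They were H19, Grb10 and Nap1l5, and the FDR of H19 was 0.837 (edgeR), or 0.986 without mouse m244.

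H19 (NR_130973.1, chromosome 7, 142575530 to 142578146, minus strand, GRCm38.p6) is an RNA of fetal and placental tissue that is shut down in most organs after birth. In WT hippocampi it was 1.56, 3.21 and 13.7 cpm and in CD hippocampi 1.51, 1.16, 1.61 and 1.13 cpm, from 9 to 80 and 6 to 11 counts. The WT value of 13.7 cpm was that of mouse m244, and without it the WT libraries were 1.56 and 3.21 cpm. The difference of mean log2(cpm + 0.5) was -1.37 (CD minus WT, exact permutation test, two-sided, p = 0.0571, with 0.0286 the smallest p that 3 against 4 libraries allow). Without mouse m244 it was -0.59.

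Because H19 reached 5 cpm in 1 hippocampus alone, it was left out of the main test of that region. With the filter applied over all 22 libraries, which H19 passed, its log2 difference was -2.16 (SE 0.63, FDR = 0.998, edgeR). With no filter on low counts it was -2.16 too, with a smaller FDR (SE 0.44, FDR = 0.0148, edgeR). Leaving out mouse m244 as well, a setting chosen after its value had been seen, gave -0.86 (SE 0.52, FDR = 0.927, edgeR). The hippocampal difference thus rested on a single library of the WT group.

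In the cortex H19 was 5.69, 4.80, 5.20 and 3.96 cpm in WT and 5.43, 3.58, 6.97 and 3.98 cpm in CD mice. The groups overlapped throughout, and the difference on the log2 scale was -0.01 (exact permutation test, two-sided, p = 1.0). In the cerebellum it was 17.96, 14.9, 12.9 and 15.8 cpm in WT and 23.6, 21.3 and 16.6 cpm in CD mice, with 1 CD library below the highest WT library. That difference was 0.40 (exact permutation test, two-sided, p = 0.0857), and edgeR gave 0.40 (SE 0.17, FDR = 0.981).

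**Figure D2:**
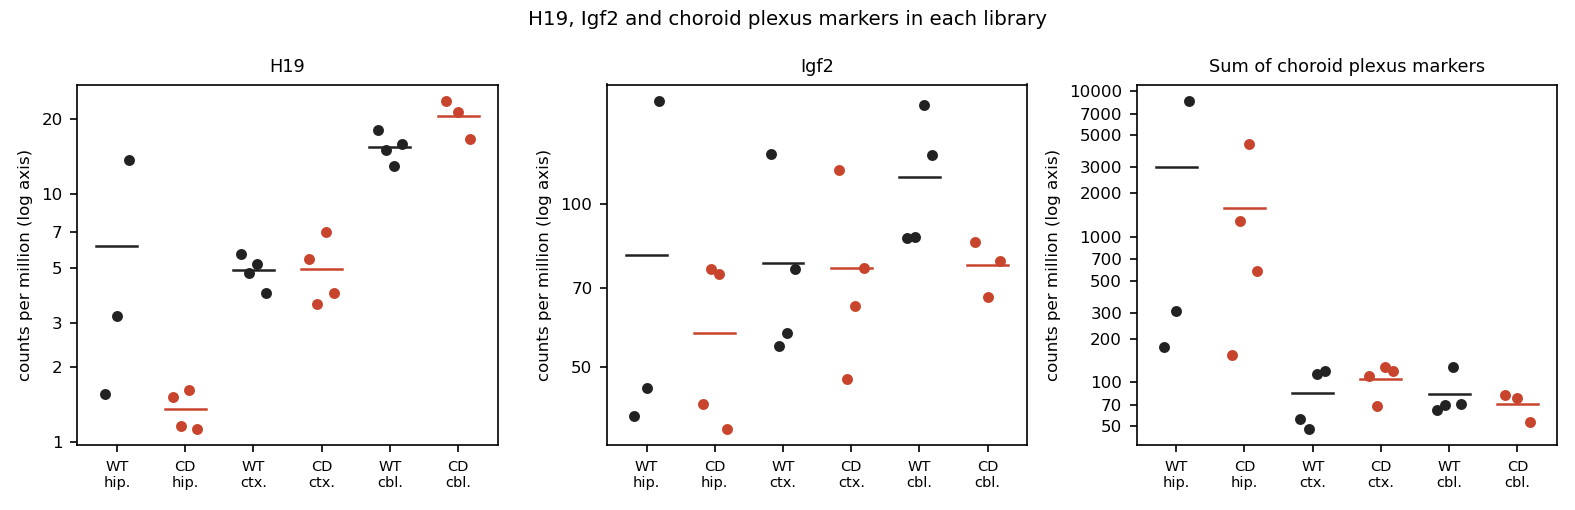
Level of H19, of Igf2 and of the summed choroid plexus markers in each of the 22 libraries (y axis, cpm, log axis), by genotype and region (x axis; hip., hippocampus; ctx., cortex; cbl., cerebellum). Points are libraries (WT black, CD red) and lines are group means. In all 3 panels the highest hippocampus is the WT library of mouse m244, at 13.7, 155 and 8570 cpm.

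The WT hippocampus of mouse m244 had the highest level of the 7 hippocampi for 6 of 31 members (19.4%), beside 16.8% of all genes. They were H19, Igf2, Cdkn1c, Igf2r, Mest and H13. Choroid plexus makes Igf2 in the adult brain, and this library also had the largest choroid plexus sum. The CD hippocampus of mouse m190, with 4307 cpm of those markers, had 1.61 cpm of H19 and 74.2 cpm of Igf2. That of mouse m138, with 1278 cpm, had 1.16 cpm of H19 and 75.7 cpm of Igf2. The remaining hippocampi, with 155 to 584 cpm of the markers, had 1.13 to 3.21 cpm of H19 and 38.5 to 45.8 cpm of Igf2. The part of choroid plexus RNA in the levels of mouse m244 was not tested.

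Whether Igf2 moved with H19 was asked within each region. In the hippocampus Igf2 was 40.6, 45.8 and 155 cpm in WT and 42.7, 75.7, 74.2 and 38.5 cpm in CD mice. The Pearson correlation of the log2 levels over 7 libraries was 0.75 (exact permutation test, two-sided, p = 0.0696, adjusted over 3 regions 0.115) and Spearman's rho was 0.57 (p = 0.2, exact permutation test, adjusted 0.243). Without the 2 libraries farthest from the median of H19 the correlation was 0.01, and without mouse m244 alone it was -0.15, so the relation rested on that library.

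In the cortex Igf2 was 123, 54.6, 57.7 and 75.7 cpm in WT and 115, 47.5, 64.8 and 76.1 cpm in CD mice. The correlation over 8 libraries was 0.36 (exact permutation test, p = 0.380) and rho was 0.48 (exact permutation test, p = 0.243, adjusted 0.243). In the cerebellum the sign was the other way: r was -0.71 (exact permutation test, p = 0.0764, adjusted 0.115) and rho -0.79 (exact permutation test, p = 0.0480, adjusted 0.144). Without the 2 farthest libraries r was -0.65, and with each genotype's mean subtracted it was -0.44 (permutations within genotype, exact, p = 0.340). None of the 3 regions passed after adjustment.

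**Figure D3:**
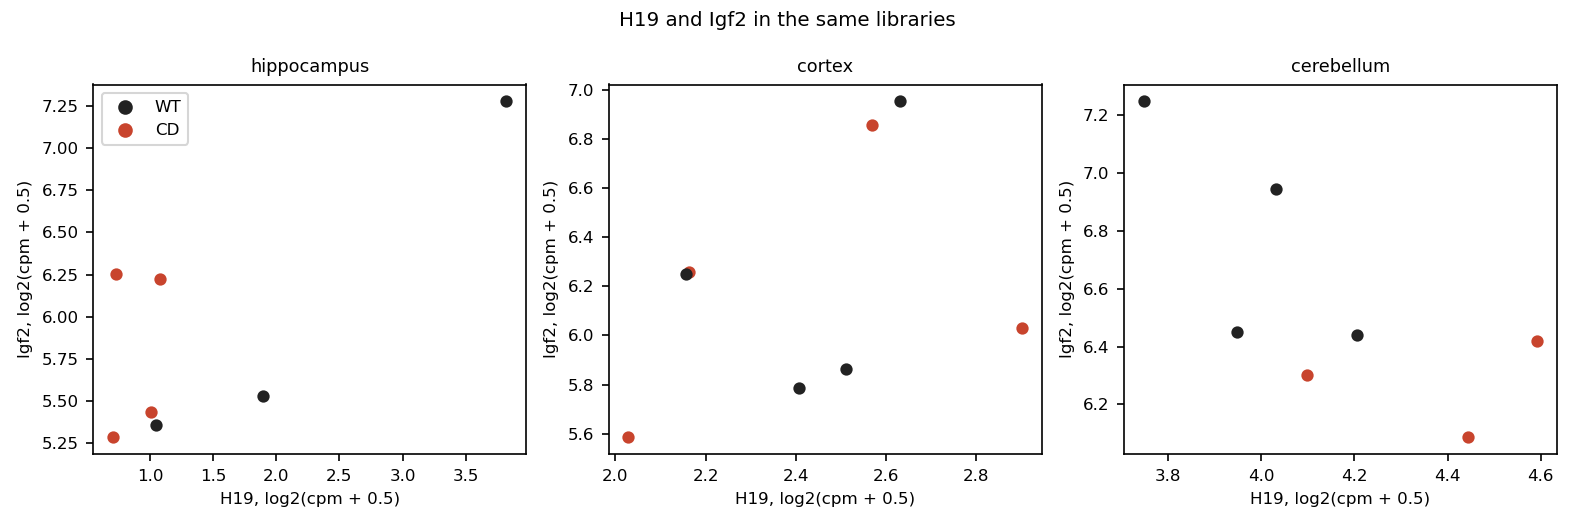
Level of Igf2 (y axis) against that of H19 (x axis) in the same library, both as log2(cpm + 0.5), 1 panel per region (WT black, CD red). The hippocampus panel shows 6 libraries with little H19 and the WT library of mouse m244 alone at the upper right, and the cerebellum panel slopes downward (r of -0.71).

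The rest of the imprinted gene network did not follow H19 past the adjustment for multiple tests. Over all genes tested in a region, 0 had a correlation with H19 at an FDR below 0.05 (exact permutation tests, 7 or 8 libraries), and an unadjusted p below 0.05 was found for 6.39% of hippocampus genes, 5.54% of cortex genes and 6.70% of cerebellum genes. Among members an unadjusted p below 0.05 was found for 2 of 30 in the hippocampus (Nap1l5 and Peg13, both negative), 2 of 30 in the cortex (Kcnq1ot1 negative, Peg13 positive) and 4 of 29 in the cerebellum. The last were Usp29 (r 0.92) and Blcap (0.84), with positive correlations, and Snrpn and Snurf (-0.93 each), which share their reads. The members other than H19 had a median correlation of -0.11, 0.08 and -0.11 in the same order, beside 0.01, 0.01 and 0.00 over all genes. A list of 13 genes of the network that Plagl1 and H19 are known to influence, all of them members, had 10 genes besides H19 with a value in the hippocampus, of which 6 had a positive correlation. It was 6 of 10 in the cortex and 3 of 9 in the cerebellum, and 0 of them had an unadjusted p below 0.05. Between genotypes 0 of its 10, 11 and 10 genes tested were called in the 3 regions, with median log2 differences of 0.05, -0.03 and -0.05.

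The genes whose levels were most like that of H19 over the 22 libraries, after subtraction of each group's mean, were Col8a1 (Pearson r 0.85), Steap2 (0.81), Cnpy1 (0.78), Sorbs3 (0.76), Gas6 (0.76) and Sulf1 (0.76), followed by Dhrs11, D3Ertd751e, Dennd10 and Agtrap. The member most like it was Mest, with r of 0.73 and rank 11 of 11136 genes, followed by Igf2, with r of 0.63 and rank 64. Each of the first 10 genes was higher in the WT hippocampus of mouse m244 than in any other hippocampus. Without that library r was 0.54 for Col8a1, 0.45 for Steap2, 0.76 for Sorbs3, 0.44 for Mest and 0.17 for Igf2. These correlations share libraries and their depths and are given as a description.

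Between regions some members passed the thresholds. Cortex against hippocampus, 2 of 31 members passed the thresholds, both lower in the cortex, beside 8.41% of all genes (4.38% higher and 4.03% lower in the cortex). Cerebellum against hippocampus, 5 of 31 passed, 2 of them higher and 3 lower in the cerebellum, beside 22.8% of all genes (9.76% higher and 13% lower). Cerebellum against cortex, 4 of 31 passed, 1 higher and 3 lower in the cerebellum, beside 22.6% of all genes (9.71% higher and 12.9% lower). At an FDR below 0.05 with any fold the counts were 15, 18 and 16 of 31, beside 35.5%, 61.4% and 61.9% of all genes. Members whose regions did not overlap in any library were 5, 9 and 8 of 31, beside 14%, 35.9% and 32.9%. The counts past both thresholds were below the shares of all genes in each comparison, and the count at an FDR below 0.05 was above that share for cortex against hippocampus alone; neither is a result about imprinted genes as a group.

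**Figure D4:**
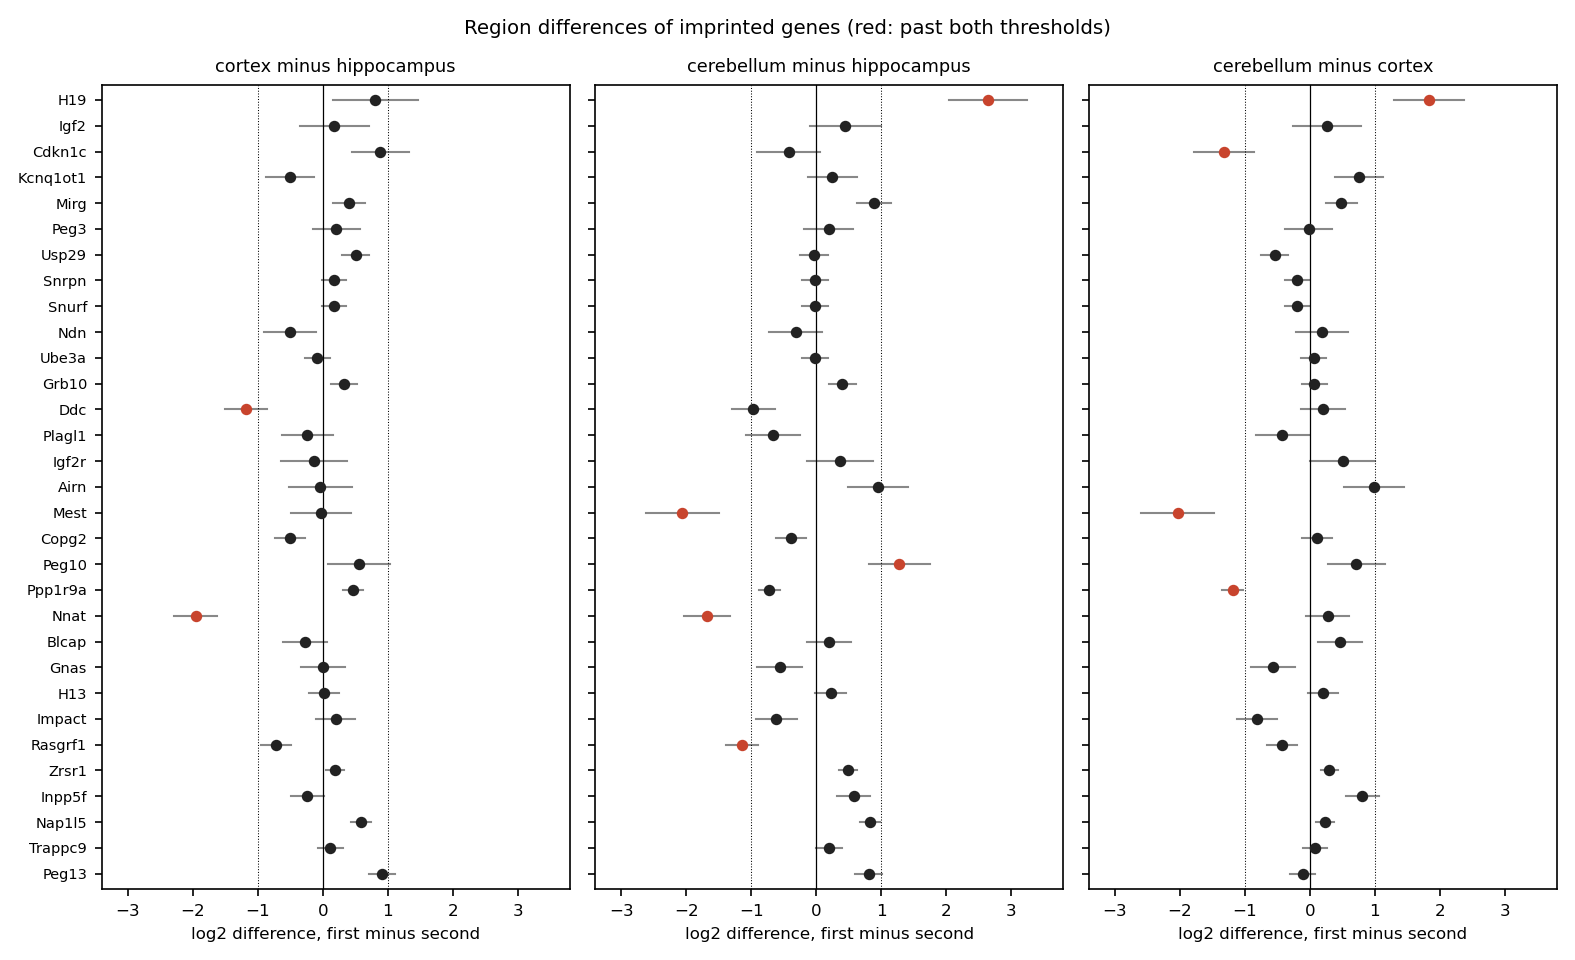
Log2 difference between regions (x axis, first minus second region named above the panel, edgeR over 22 libraries) of the 31 members that passed the filter (y axis). Points are estimates (red, past both thresholds), bars are 95% confidence intervals and dotted lines mark 2-fold changes. H19 lies farthest to the right in both comparisons with the cerebellum, at 2.64 and 1.83, and Mest farthest to the left, at -2.06 and -2.03.

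H19 was highest in the cerebellum, and hippocampus and cortex did not differ past the thresholds. Its level was 1.13 cpm at the lowest, 1.56 at the median and 13.7 at the highest of 7 hippocampi, 3.58, 5.0 and 6.97 cpm in 8 cortices and 12.9, 16.6 and 23.6 cpm in 7 cerebella. The cerebella lay above all cortices, and above all hippocampi except that of mouse m244. The log2 difference was 2.64 for cerebellum minus hippocampus (SE 0.29, FDR = 2.3e-08, edgeR), or 3.27 without mouse m244 (FDR = 7.8e-12), and 1.83 for cerebellum minus cortex (SE 0.26, FDR = 1.3e-06). Cortex minus hippocampus was 0.81 (SE 0.32, FDR = 0.0495, edgeR), past neither of the thresholds, while without mouse m244 it was 1.48 (SE 0.22, FDR = 1.7e-05, edgeR) and passed. Markers of the leptomeninges, where H19 and Igf2 are also known to be made, summed to 93.9 to 134 cpm in cerebella, 73.8 to 159 cpm in cortices and 62.1 to 126 cpm in hippocampi. Against the hippocampus 3 of 10 of them (Col3a1, Slc6a13 and Aldh1a2) were called higher in the cerebellum, beside 9.76% of all genes, and 0 lower. Against the cortex 0 of 10 were called higher in the cerebellum, beside 9.71% of all genes, and 2 lower (Islr and Igfbp2), beside 12.9%. Their part in the H19 levels was not tested.

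Igf2, its neighbour, did not pass in any pair of regions. Its levels were 38.5 cpm at the lowest, 45.8 at the median and 155 at the highest hippocampus, 47.5, 70.2 and 123 cpm in the cortex and 67.4, 86.3 and 152 cpm in the cerebellum. The regions overlapped, with log2 differences of 0.44 (SE 0.26) for cerebellum minus hippocampus and 0.17 (SE 0.26) for cortex minus hippocampus.

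Nnat encodes neuronatin, a small membrane protein of neurons, and is read from the paternal chromosome inside an intron of Blcap. Its level was 730, 965 and 1297 cpm (lowest, median and highest) in the hippocampus, 177, 216 and 384 cpm in the cortex and 222, 301 and 411 cpm in the cerebellum. Every hippocampus was above every library of the other regions, and the log2 difference was -1.96 for cortex minus hippocampus (SE 0.16, FDR = 4.7e-10, edgeR) and -1.68 for cerebellum minus hippocampus (SE 0.17, FDR = 3.6e-09). Blcap, on the other strand, had log2 differences of -0.27 (SE 0.16) and 0.19 (SE 0.16) in the same comparisons.

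Rasgrf1, an exchange factor that couples calcium to Ras in neurons, had 1096, 1278 and 1292 cpm in the hippocampus, 626, 782 and 848 cpm in the cortex and 338, 566 and 706 cpm in the cerebellum. Hippocampi were again above all other libraries. The log2 difference was -1.14 for cerebellum minus hippocampus (SE 0.12, FDR = 5.2e-09, edgeR), past the thresholds, and -0.72 (SE 0.11) for cortex minus hippocampus, under the fold threshold. Ddc, the aromatic amino acid decarboxylase that makes dopamine and serotonin and a neighbour of Grb10, had 35.8, 42.2 and 54.9 cpm in the hippocampus, 13.6, 18.3 and 29.5 cpm in the cortex and 14.7, 20.8 and 30.2 cpm in the cerebellum. It was lower in the cortex by a log2 difference of -1.18 (SE 0.16, FDR = 1.3e-06, edgeR). For cerebellum minus hippocampus the value was -0.97 (SE 0.16, FDR = 1.2e-05), just under the fold threshold, and with the mouse as a block it was -1.005 (SE 0.12) and passed.

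Mest, a hydrolase family gene of mesoderm whose intron holds miR-335, was low in all regions and lowest in the cerebellum. Its level was 2.59, 4.62 and 7.51 cpm in the hippocampus, 3.17, 4.44 and 5.75 cpm in the cortex and 0.60, 1.10 and 1.43 cpm in the cerebellum. No cerebellum reached the level of any other library, and the log2 difference was -2.06 against the hippocampus (SE 0.27, FDR = 4.2e-07, edgeR) and -2.03 against the cortex (SE 0.27, FDR = 4.4e-07). Mest reached 5 cpm in hippocampi and cortices alone, so it passed the filter only through the regions where it was higher. Its lowest count in a library was 4. Copg2, which overlaps the end of Mest on the other strand, had values of -0.39 (SE 0.11) and 0.11 (SE 0.11). Peg10 had 3.46, 4.52 and 8.36 cpm in the hippocampus, 3.37, 7.95 and 10.97 cpm in the cortex and 7.25, 11.9 and 15.1 cpm in the cerebellum. It was higher in the cerebellum than in the hippocampus by 1.28 on the log2 scale (SE 0.23, FDR = 2.8e-05, edgeR), although the CD hippocampus of mouse m190 lay above the WT cerebellum of mouse m244.

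Cdkn1c and Ppp1r9a were both lower in the cerebellum than in the cortex. Cdkn1c, an inhibitor of cyclin-dependent kinases that is silenced on the paternal chromosome by Kcnq1ot1, had 3.77, 7.98 and 14.7 cpm in the hippocampus, 11.9, 14.7 and 18.4 cpm in the cortex and 3.47, 5.70 and 9.77 cpm in the cerebellum. Cortex and cerebellum did not overlap, and their log2 difference was -1.31 (SE 0.22, FDR = 1.6e-05, edgeR). Cortex minus hippocampus was 0.89 (SE 0.21), and 1.08 (SE 0.22) without mouse m244, past the thresholds. Ppp1r9a, or neurabin, a scaffold of dendritic spines that brings protein phosphatase to actin, had 119.7, 132 and 154 cpm in the hippocampus, 143, 186 and 201 cpm in the cortex and 70.7, 81.8 and 90.2 cpm in the cerebellum. The cerebella were lower than all other libraries, with a log2 difference to the cortex of -1.19 (SE 0.08, FDR = 1.0e-12, edgeR).

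**Figure D5:**
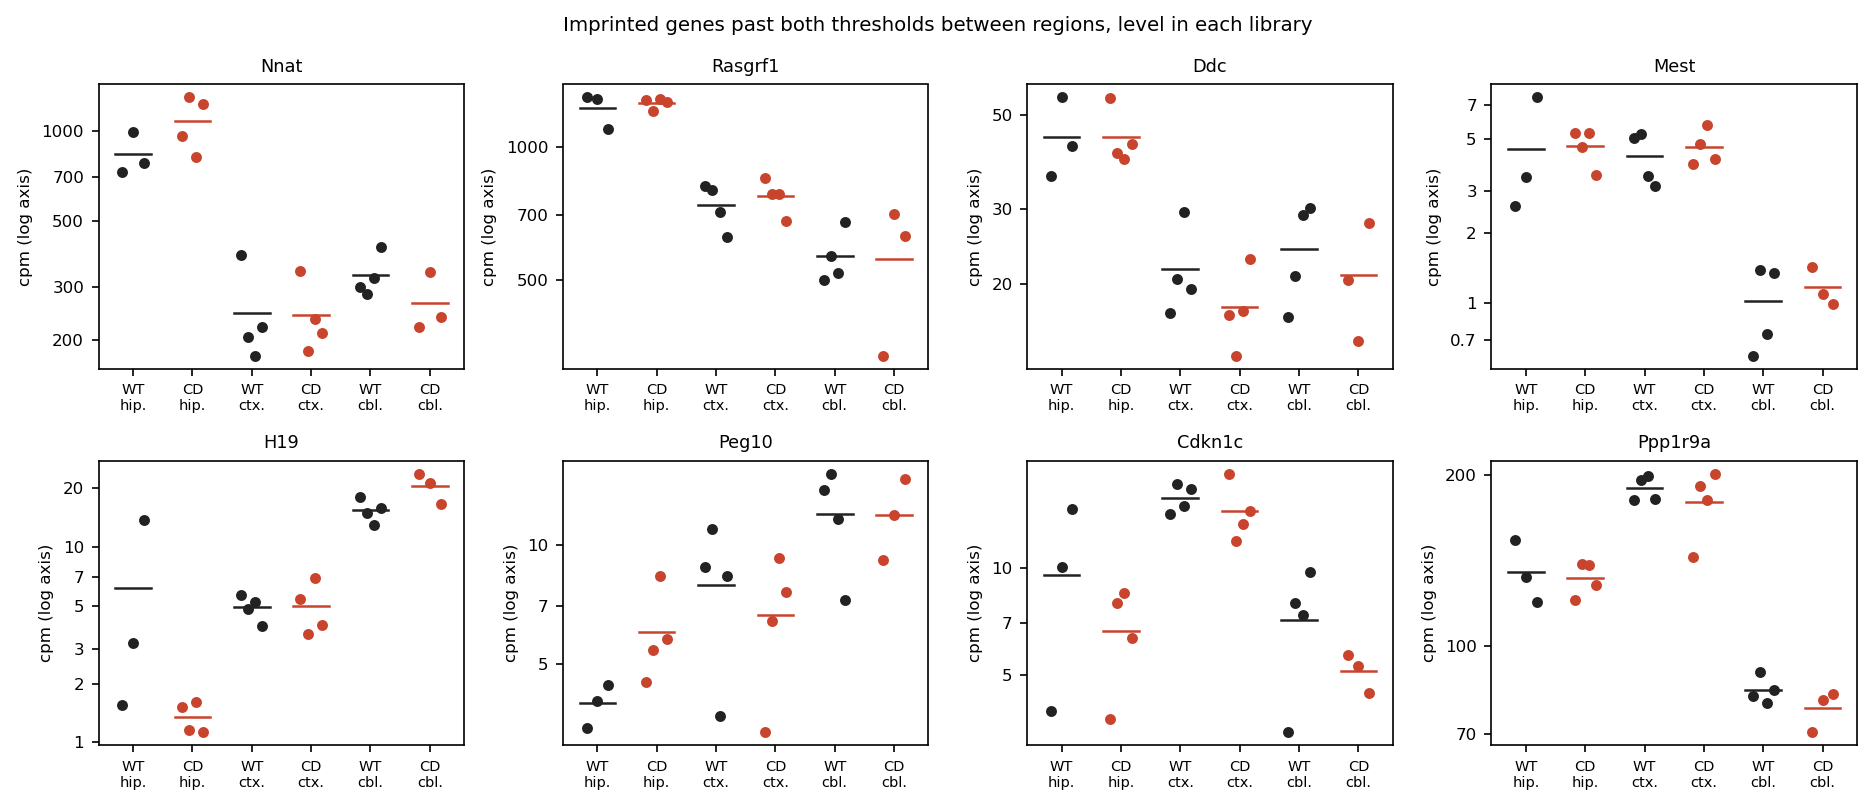
Levels (y axis, cpm, log axis) of the 8 members past both thresholds in a region comparison, by genotype and region (x axis; hip., hippocampus; ctx., cortex; cbl., cerebellum). Points are libraries (WT black, CD red) and lines are group means. The hippocampi stand above the other regions for Nnat, Rasgrf1 and Ddc, and the cerebella stand below them for Mest and Ppp1r9a.

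The long noncoding RNAs that silence or host other imprinted genes were higher in the cerebellum in part. Kcnq1ot1 had log2 differences of 0.75 (SE 0.18, FDR = 0.00080, edgeR) against the cortex and 0.25 (SE 0.18) against the hippocampus. Airn, the antisense silencer of Igf2r, had 0.99 (SE 0.22) and 0.95 (SE 0.23), both short of a 2-fold change. Without mouse m190 both Airn differences passed the thresholds (1.16 each), without m240 that to the hippocampus did (1.03), and without m244 that to the cortex (1.195). Igf2r and Airn lie on opposite strands of overlapping DNA, and Igf2r itself had 0.50 (SE 0.24) and 0.37 (SE 0.24). Mirg had 0.49 (SE 0.12) and 0.89 (SE 0.12). Peg13, a brain RNA inside Trappc9, was higher than in the hippocampus in the cortex (0.91, SE 0.10, FDR = 3.0e-08, edgeR) and in the cerebellum (0.80, SE 0.10, FDR = 1.2e-07), with no overlap of libraries in either case.

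Other members with changes under 2-fold included Nap1l5, higher than in the hippocampus by 0.59 in the cortex (SE 0.07) and 0.82 in the cerebellum (SE 0.07, FDR = 4.8e-10, edgeR). Inpp5f, an inositol phosphatase gene, was higher in the cerebellum than in the cortex by 0.81 (SE 0.12, FDR = 2.5e-06), and Impact was lower there, at -0.81 (SE 0.15, FDR = 4.3e-05). Usp29 was -0.54 (SE 0.10, FDR = 5.4e-05) in that comparison, while Peg3, which shares its promoter region, was -0.02 (SE 0.17, FDR = 0.935). Plagl1 itself was lower in the cerebellum than in the hippocampus by -0.67 (SE 0.20, FDR = 0.0058).

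In the Prader-Willi and Angelman cluster the region differences were small. Ndn was lower in the cortex than in the hippocampus by -0.51 (SE 0.19, FDR = 0.0423, edgeR), under the fold threshold. Snrpn, a core protein of the spliceosome that neurons make in quantity, had median levels of 1218 cpm (hippocampus), 1441 cpm (cortex) and 1250 cpm (cerebellum), and none of its region differences passed an FDR of 0.05. Snurf is read from the same transcript and its counts were equal to those of Snrpn in 9 of 22 libraries and never more than 13 counts away. The pair is thus in effect 1 measurement, although the counts of members given here include both genes. Ube3a had log2 differences of -0.08, -0.02 and 0.06 (SE 0.09 each), and its 95% confidence intervals lay within a 2-fold change. Grb10 was higher than in the hippocampus by 0.33 (SE 0.10) in the cortex and 0.40 (SE 0.10) in the cerebellum. Gnas, which encodes a stimulatory G protein subunit from several promoters that these counts do not separate, was lower in the cerebellum by -0.57 (SE 0.16) against the cortex and -0.56 (SE 0.17) against the hippocampus.

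Among the members measured, 11 did not pass the filter. Meg3 and Rian, long noncoding RNAs of the Dlk1-Meg3 cluster, had 246 and 13 counts over the 22 libraries, whereas Mirg of the same cluster had 3534. Magel2, Mkrn3 and Peg12 of the Prader-Willi region had 22, 205 and 3 counts, and Phlda2, Zim1, Calcr and Asb4 had 4, 24, 7 and 32. Sgce, the epsilon-sarcoglycan gene of myoclonus dystonia, had 329 counts and Commd1 had 314. They were not in the main tests. With no filter on low counts 0 of them were called between genotypes, and Mkrn3 was called higher in the cerebellum than in the cortex (log2 difference 1.52, SE 0.38, FDR = 0.00042, edgeR). A low count at the 3′ end of the listed transcript does not show that a gene is silent.

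The genes around the imprinted ones gave the following. Of 16 genes of the IGF axis (ligands, receptors, binding proteins, receptor substrates and RNA-binding proteins), 12 were tested in each region and 0 were called between genotypes. Between regions 1 of 12 was called for cortex against hippocampus, 1 for cerebellum against hippocampus and 3 for cerebellum against cortex. The shares of all genes were 8.41%, 22.8% and 22.6% in the same order. The called genes encode binding proteins: Igfbp6 at 2.97 (SE 0.15, cortex minus hippocampus) and Igfbp4 at -2.27 (SE 0.13, cerebellum minus hippocampus). Against the cortex 3 were lower in the cerebellum, beside 12.9% of all genes (Igfbp2, which is also among the leptomeninges markers, Igfbp4 and Igfbp6). Of 16 genes that set or keep imprints, such as Dnmt1, Zfp57 and Trim28, 8 were tested. None was called in any comparison, beside the same shares of all genes between regions. Their median log2 difference was 0.37 for cerebellum minus hippocampus and 0.36 for cerebellum minus cortex, higher in the cerebellum for 8 and 7 of 8. The median over all genes was 0.02 in both comparisons. Of 47 further imprinted genes, 40 had a row, 21, 19 and 19 were tested between genotypes in the 3 regions (hippocampus first) and 0 were called. Between regions 2, 7 and 4 of 23 were called, beside 8.41%, 22.8% and 22.6% of all genes, among them Cobl (3.29, SE 0.14, cortex minus hippocampus), Dio3 (-3.30, SE 0.54) and Th (4.01, SE 0.34, cerebellum minus hippocampus). Dio3 reached 5 cpm only in the CD hippocampi of mice m138 and m242 (5.66 and 7.34 cpm), and Th only in cerebella (13.9 to 35.1 cpm). Both thus passed the filter only through the region where they were high.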

How the data were processed

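RNA of 3 brain regions of 8 mice was measured in 22 CelSeq2 libraries. The study states fewer libraries per group than the labels give, and all labelled libraries were used. Per the labels and the methods of the study, the authors used STAR (build mm10) for alignment and the End Sequence Analysis Toolkit for counting, and the deposited values are raw counts per RefSeq transcript. Tool versions, and whether molecular identifiers were used to collapse reads, are not given in the sources used here. Of 85964 transcripts, 69288 were matched to 23037 genes by RefSeq accession without version (annotation of GRCm38.p6), and the transcript with the highest total stood for its gene. Levels are cpm scaled by TMM over all libraries. Where members overlap on opposite strands, whether the counting used strand is not given in the sources used here.

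Genotypes were compared within a region, and regions over 6 group means, with edgeR 4.0.16 (glmQLFit, glmQLFTest, TMM) in R 4.3.3, after the filter of 5 cpm in 2 libraries, at the thresholds the study used. The fit over regions used limma 3.58.1 (voom, mouse as random block). FDR values were adjusted over all genes tested. The p values of the H19 and Igf2 correlations were adjusted over the 3 regions where an adjusted value is given. Other exact permutation p values printed here were not adjusted. H19 and its correlation with Igf2 were tested by exact permutation on log2(cpm + 0.5) with scipy 1.17.1 under Python 3.11.15. Each library of a group is a different mouse. The mouse numbers in the labels pair regions of the same animal. The correlation of same-mouse deviations from group means had means of 0.09 (hippocampus with cortex, 7 mice), 0.05 (hippocampus with cerebellum, 6 mice) and -0.00 (cerebellum with cortex, 7 mice).

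The members and lists were chosen with earlier results of these data known. Values in every library were given for H19, Igf2, members with the largest folds past the thresholds between regions (up to 3 per comparison and direction) and the 3 smallest p values between genotypes per region and over the regions. Genes like H19 were the 10 with the highest correlation of deviations. On simulated counts with 200 genes changed, the edgeR test recovered 96.9% (hippocampus, 9867 genes), 98.9% (cortex, 9768 genes) and 100.0% (cerebellum, 10056 genes) of those changed 3-fold. The simulation gave every gene the same dispersion and changed only genes above a minimum mean count. These rates therefore say nothing about members with fewer counts or a larger spread. Alternatives were DESeq2 1.42.0, RLE size factors, other filters, sums of distinct transcripts, a looser threshold, the mouse block, other pseudocounts and leaving out libraries or mice. Precision is limited by depth, and counting error alone is a lower bound of the spread.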

Additional observations from a re-analysis of the deposited data

How the results depend on the processing

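No imprinted gene was called between genotypes in any region or over the regions under DESeq2, RLE size factors, other filters, summed transcripts, the looser threshold or with any library or mouse left out. Between regions, an FDR below 0.05 with any fold gave 15 members for cortex against hippocampus, 18 for cerebellum against hippocampus and 16 for cerebellum against cortex, in place of 2, 5 and 4. With the mouse as a replicate block the counts were 2, 6 (Ddc added) and 4, and 0 for the interaction, and over the regions the count without the block was 0. Leaving out 1 mouse gave 2 to 4 members for cortex against hippocampus (4 without mouse m244, with H19 and Cdkn1c added), 5 to 6 and 4 to 5 for the other comparisons. Without the filter Mkrn3 was also called between cerebellum and cortex (5 members), and summed transcripts added Airn (6 and 5 members).

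The interaction called 1 member without the filter, H19 (FDR = 0.00030, edgeR), and, without the filter and mouse m244 together, a setting chosen after the data were seen, 1 other, Igf2 (FDR = 0.0395, edgeR). The H19 log2 difference in the cortex was 0.0011 when divided by the library total, -0.17 to 0.12 with 1 library left out, and -0.01 as reported, so that its sign carries no weight. The H19 and Igf2 correlation ranged from -0.15 to 0.87 in the hippocampus and from -0.83 to -0.47 in the cerebellum with 1 library left out, and its p was 0.0361 without the CD hippocampus of mouse m138 and 0.0319 without the CD cerebellum of mouse m118 (exact permutation tests). The causes were not tested. RLE and TMM factors differed by at most 0.02 on the log2 scale.

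In the hippocampi H19 had 6 to 80 counts, and 5 cpm stood for 13.8 to 44.3 counts over all libraries.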
